A study of Rattus norvegicus with 18 samples.

Results

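The genes described here encode subunits of the N-methyl-D-aspartate (NMDA) receptor: Grin1, Grin2a, Grin2b, Grin2c, Grin2d and Grin3a. Their probes were taken by gene symbol, and the genes were chosen with earlier results of these data known. Of the 6 genes, 5 had a probe among the 22523 probes of the Illumina RatRef-12 table, which carry 21563 distinct symbols. Each of the 5 had 1 probe, and Grin3a was not analysed here. RNA came from primary cortical neurons of embryonic rats given lentivirus on day 1 after plating, for 6 hours, and harvested on day 5, 9 or 12. One virus delivered an shRNA against CHD5, a brain-enriched chromatin remodeling ATPase, and the other a control (scramble) shRNA, both from the pLKO.1 vector. Each combination of day and virus had 3 arrays, lettered a, b and c, giving 18 arrays in 6 groups. The arrays used a single CHD5 shRNA virus, so effects of that one sequence on other targets cannot be told apart from those of CHD5. No array was of uninfected cells, so virus and shRNA are common to all groups. Each group was a mixed culture, and a change in the share of a cell type and a change in RNA per cell cannot be told apart in it. No probe carried the symbol Chd5, so depletion could not be read from these arrays.

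The NMDA receptor is a tetrameric glutamate-gated channel that admits calcium when glutamate and a co-agonist (glycine or D-serine) are bound and depolarization has relieved its magnesium block. GRIN1 (GluN1) binds the co-agonist and is required in every functional receptor. GRIN2A and GRIN2B (GluN2A and GluN2B) bind glutamate and set channel kinetics and links to the postsynaptic density. GRIN2B prevails in the embryonic and newborn forebrain, and GRIN2A rises after birth, so that the ratio of the pair is a usual mark of synapse maturation. GRIN2C is best known from cerebellum and astrocytes, GRIN2D from the early brainstem, midbrain and interneurons, and GRIN3A from receptors of low calcium permeability in young neurons.

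The probes define what could be measured, so the first 30 of the 50 bases of each are shown, as given in the deposited annotation, 5′ to 3′ and in lower case throughout. The Grin1 probe lies on chromosome 3 (minus strand, start 3453909, end 3453958) and begins at base 3990 of the array's transcript. The Grin2a probe lies on chromosome 10 (plus strand, 6005714 to 6005763) and begins at base 5509. The Grin2b probe lies on chromosome 4 (minus strand, 172721956 to 172722005) and begins at base 5148. The Grin2c probe lies on chromosome 10 (minus strand, 105323546 to 105323595) and begins at base 4324. The Grin2d probe is assigned to chromosome 1 (minus strand) without a start or end and begins at base 4987. The genome build is not given in the sources used here, and whether a probe lies in coding or untranslated sequence is not stated in the annotation.
Grin1: cttctgtccgcagccacaataggcttcctc
Grin2a: gccagcagccatgtgtaatctgtaagaagt
Grin2b: gagcgaggctttcctgatgctgctctcttt
Grin2c: ttggccaggtttgggggacaggccagcttg
Grin2d: aagggctttttaacgtcacctgattggcgg

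One array stood apart from the others. Replicate b of the day 9 control averaged 135 in signal, with 7047 probes detected, against 400.2 to 789 and 8360 to 9931 on the other 17 arrays. The SD of its log2 signals was 1.11, against 1.72 to 2.02. The main results are therefore given with and without it. The labels do not say whether replicates were separate cultures, so p-values measure only the spread between these arrays, which may be technical.

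Only Grin1 and Grin2b gave a signal above background throughout. A probe was taken as detected where the deposited detection p-value was at most 0.02. Grin1 and Grin2b were detected on 18 of 18 arrays each. Grin2a was detected on 1 of 18 arrays, the day 5 control array of replicate b, at a detection p-value of 0.0182. Grin2c was detected on 1 of 18, the day 12 control array of replicate c, at 0.0121, and Grin2d on 0 of 18, its lowest detection p-value being 0.0339. The background signal lay between 65.3 and 81.8, and the lowest signal of any detected probe between 79.6 and 119. Grin2a ranged from 57.0 to 101 (median 77.0), Grin2c from 62.5 to 123 (median 82.6) and Grin2d from 67.8 to 108 (median 95.7). A second measurement of the 6 replicate a samples detected Grin1 and Grin2b in all 6, and Grin2a, Grin2c and Grin2d in 0 of 6. For these 3 subunits the arrays therefore give only an upper bound at every time point, with or without CHD5 shRNA.

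**Figure D1:**
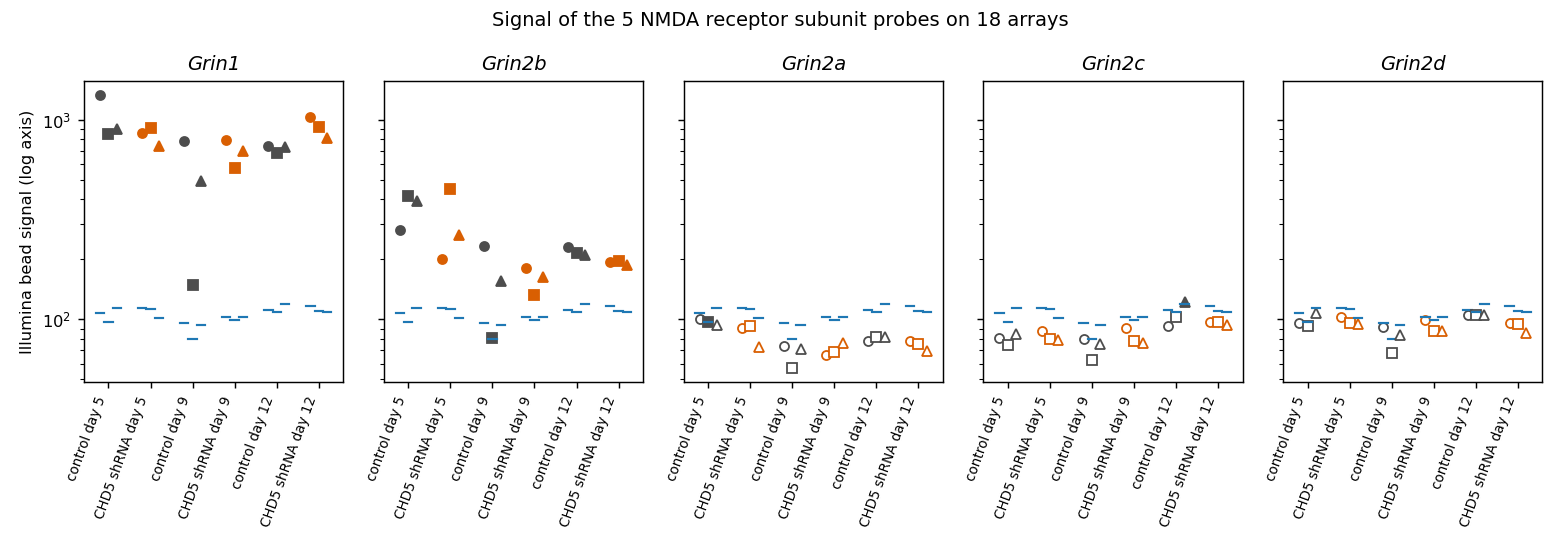
Bead signal (log axis) of the 5 subunit probes on each of the 18 arrays; grey is control, orange CHD5 shRNA, and circle, square and triangle are replicates a, b and c. Filled points were detected (detection p at most 0.02) and blue dashes mark the lowest detected signal of that array: Grin1 and Grin2b are filled throughout, Grin2a and Grin2c on 1 array each and Grin2d on none of the 18.

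Grin1, the obligatory subunit, fell in control cultures from day 5 to day 9 and rose with CHD5 shRNA from day 5 to day 12, and on day 9 it was higher with CHD5 shRNA than in control. On day 5 its signal was 1337, 853 and 904 in control replicates a, b and c and 863, 908 and 738 with CHD5 shRNA. On day 9 it was 780, 148 and 491 in control, the 148 coming from the array that stood apart, and 789, 575 and 699 with CHD5 shRNA. On day 12 it was 744, 685 and 733 in control and 1030, 917 and 812 with CHD5 shRNA. The day 12 signals did not overlap, and all 3 with CHD5 shRNA were higher. These signals are as scanned. For tests they were put on a log2 scale on which each array has mean 0 and the same spread, and all differences below are on this normalized log2 scale.

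Normalized Grin1 on day 5 was 1.34 ± 0.06 (SD, n = 3) in control and 1.10 ± 0.09 with CHD5 shRNA. The groups did not overlap, with CHD5 shRNA lower by a log2 difference of -0.24 (SE 0.12, 95% interval -0.50 to 0.02). This did not pass the test across all probes (limma, adjusted p = 0.94). On day 9 the order was turned, at 0.78 ± 0.29 in control and 1.31 ± 0.16 with CHD5 shRNA. Grin1 was higher with CHD5 shRNA by 0.53 (SE 0.12, 1.44-fold, interval 0.27 to 0.79) and passed (limma, adjusted p = 0.0173). On day 12 it was 1.08 ± 0.05 in control and 1.49 ± 0.09 with CHD5 shRNA. This difference of 0.42 (SE 0.12, 1.34-fold, interval 0.16 to 0.68) fell just outside the threshold of 0.05 (limma, adjusted p = 0.0551) and passed in 9 of 28 alternative settings. The 3 arrays of each group did not overlap on any of the 3 days. Among all 11079 probes tested, 0.171% passed on day 5, 5.89% on day 9 and 5.47% on day 12, and the groups did not overlap for 11%, 20.6% and 38.2%.

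The calls on days 9 and 12 changed with single arrays. With that weak day 9 control array left out, the difference on day 9 was 0.39 (limma, adjusted p = 0.0208) and on day 12 it was 0.43 and passed (limma, adjusted p = 0.00325). In that fit 10.8% of all probes passed on day 9 and 13.3% on day 12. The day 12 call was also gained without day 9 control replicate a, at 0.42 (limma, adjusted p = 0.0191). The day 9 difference no longer passed when CHD5 shRNA replicate a was dropped, at 0.49 (limma, adjusted p = 0.0827), or replicate c, at 0.49 (limma, adjusted p = 0.114). Over 28 alternative settings the day 9 difference lay between 0.39 and 0.67 and the day 12 difference between 0.38 and 0.47, positive in all 28. The day 5 difference was negative in all 28, between -0.28 and -0.19, and passed in 0.

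Within the control cultures Grin1 was lower on day 9 than on day 5 by -0.57 (SE 0.12, 0.675-fold), which passed (limma, adjusted p = 0.00328), and so did 22% of all probes. Without the array that stood apart the fall was -0.42 (limma, adjusted p = 0.00563), where 21% of all probes passed. With quantile normalization it was -0.33 (limma, adjusted p = 0.0146). The control difference between days 5 and 12 was -0.27 (limma, adjusted p = 0.135), with no overlap between the groups. It passed without the outlying day 9 array, at -0.27 (limma, adjusted p = 0.025), as did 39% of all probes in that fit. From day 9 to day 12 control Grin1 differed by 0.30 (limma, adjusted p = 0.184), where 4.16% of probes passed. It was 0.15 without the outlying day 9 array (limma, adjusted p = 0.493), and 0.44 without day 9 control replicate a, where it passed (limma, adjusted p = 0.0189).

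Within the cultures given CHD5 shRNA Grin1 rose. It gained 0.39 from day 5 to day 12 (SE 0.12, 1.31-fold, interval 0.14 to 0.65), which passed (limma, adjusted p = 0.0334), as did 17% of all probes. The 3 arrays of day 12 all lay above the 3 of day 5. Leaving out any 1 of these 6 arrays put it between 0.34 and 0.44 and ended the call, with adjusted p (limma) from 0.051 without day 12 replicate c to 0.132 without day 5 replicate b. The steps from day 5 to day 9 (0.21, adjusted p = 0.337 in limma, 9.33% of probes passing) and from day 9 to day 12 (0.19, adjusted p = 0.742, 1.37% of probes passing) did not pass.

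The change of the CHD5 shRNA difference between days was tested as such. From day 5 to day 9 the Grin1 difference moved by 0.77 (SE 0.17, interval 0.41 to 1.14), and from day 5 to day 12 by 0.66 (SE 0.17, interval 0.29 to 1.02). Neither passed across all probes (limma, adjusted p = 0.224 and 0.165), where 0.153% of probes passed for day 12. Without the outlying day 9 control array both passed, at 0.63 (limma, adjusted p = 0.0373) and 0.67 (limma, adjusted p = 0.00858). In that fit 0.634% and 2.41% of all probes passed for these 2 changes. Ordered by mean level, Grin1 was highest with CHD5 shRNA on day 12, followed by control on day 5, CHD5 shRNA on days 9 and 5, and control on days 12 and 9. Only the first of these neighbouring pairs had arrays that did not overlap.

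**Figure D2:**
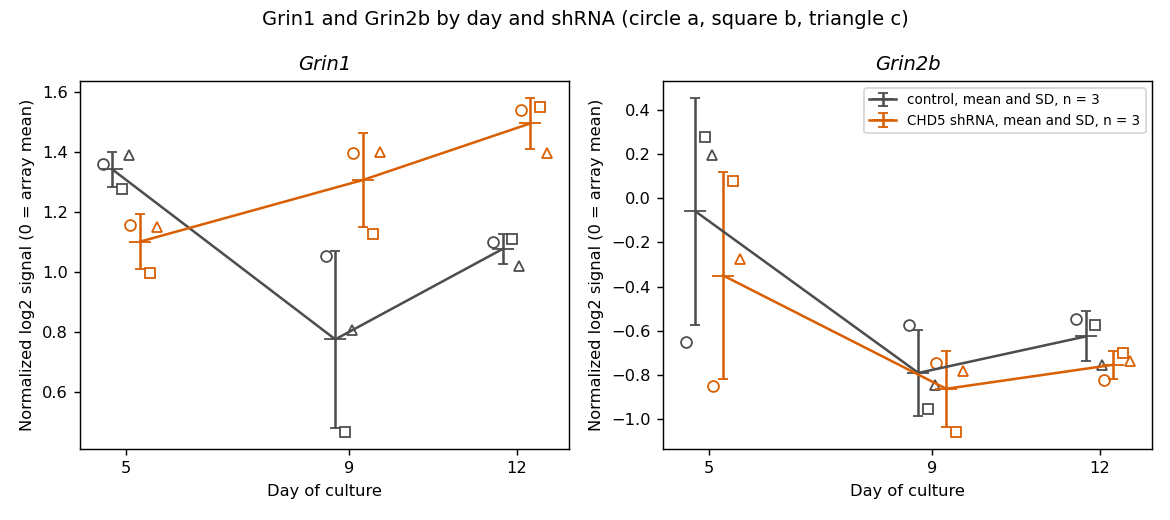
Normalized log2 signal of Grin1 and Grin2b by day of culture for control (grey) and CHD5 shRNA (orange); points are single arrays, bars the mean ± SD of 3. Control Grin1 goes from 1.34 on day 5 to 0.78 on day 9 and 1.08 on day 12 while CHD5 shRNA goes from 1.10 to 1.31 and 1.49; both Grin2b courses lie lower after day 5.

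Markers of other cell types moved on the same days. Of 8 astrocyte markers kept by the detection filter, 6 fell with CHD5 shRNA on day 9 (median -1.02) and 6 on day 12 (median -0.76), against medians of -0.02 and 0.01 over all probes. Without the outlying day 9 array 6 and 7 fell. Their summed signal on day 12 was 41474 to 48537 in control and 22217 to 25819 with CHD5 shRNA, and on day 5 it was 9467 to 15181 and 6964 to 10744. Gfap, the astrocyte intermediate filament, was detected on 18 of 18 arrays and Aqp4, the astrocyte water channel, on 12, and none of the 8 was undetected throughout. All 8 rose from day 5 to day 12 in both control (median 2.05) and CHD5 shRNA cultures (median 2.03). Of 10 general neuronal markers 1 rose on day 9 and 1 on day 12, with medians of 0.09 and 0.10. With all arrays that gene was Tubb3, neuronal beta tubulin, on both days. Without the outlying array 1 neuronal marker rose on day 9 and 2 on day 12. Of 9 markers of excitatory neurons 3 rose on day 9 (median 0.41) and 2 on day 12 (median 0.13); without the outlying array 1 rose on day 9, and 3 rose and 1 fell on day 12. The 7 microglial markers measured summed to 473 to 669, with at most 1 detected per array. The part of these shifts in the Grin1 values was not tested.

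Grin2b, the subunit of young synapses, fell in control from day 5 to day 9, and no difference between CHD5 shRNA and control passed on any day. On day 5 its signal was 279.5, 416 and 392 in control and 199.9, 452 and 265 with CHD5 shRNA. Replicate a was the lowest of the 3 in both. On day 9 it was 233, 80.8 and 156 in control and 181, 133 and 164 with CHD5 shRNA. On day 12 it was 230.4, 214 and 209 in control and 195, 196 and 188 with CHD5 shRNA. The day 12 signals with CHD5 shRNA all lay below those of control, but normalized values overlapped on every day.

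Normalized Grin2b was -0.06 ± 0.51 in control and -0.35 ± 0.47 with CHD5 shRNA on day 5 (SD, n = 3). It was -0.79 ± 0.19 and -0.86 ± 0.17 on day 9, and -0.63 ± 0.11 and -0.75 ± 0.06 on day 12. CHD5 shRNA minus control was thus -0.29 (interval -0.75 to 0.17), -0.07 (-0.53 to 0.39) and -0.13 (-0.59 to 0.33) on the 3 days. None passed (limma, adjusted p = 0.999, 0.877 and 0.932). Leaving out 1 day 5 array moved the day 5 value from -0.04, without CHD5 shRNA replicate a, to -0.58, without control replicate a. Dropping CHD5 shRNA replicate b gave -0.50, and dropping control replicate b or c gave -0.12 or -0.16. Compared within letters, which the labels do not name as pairs, day 5 Grin2b was lower with CHD5 shRNA in 3 of 3. The differences were -0.20, -0.20 and -0.47 for a, b and c, and with the replicate block this did not pass. The day 9 and day 12 values stayed within -0.20 and 0.03 in the 28 alternatives. The change of this difference from day 5 to day 12 was 0.16 (interval -0.49 to 0.81, limma, adjusted p = 0.999).

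With time, control Grin2b fell from day 5 to day 9 by -0.73 (SE 0.22, 0.602-fold), which passed (limma, adjusted p = 0.0232), although the highest day 9 array lay above the lowest day 5 array. Without the outlying day 9 array it was -0.66 (limma, adjusted p = 0.0486), where 21% of all probes passed. The call ended without day 5 control replicate b, at -0.56 (limma, adjusted p = 0.114), without day 5 control replicate c, at -0.60 (limma, adjusted p = 0.0784), and without day 9 control replicate c, at -0.71 (limma, adjusted p = 0.0534). It also ended with median centring, with array weights and with the compared arrays alone (limma, adjusted p = 0.0809, 0.192 and 0.194). From day 5 to day 12 the control difference was -0.57 (limma, adjusted p = 0.07). Among the control comparisons 23.6% of all probes passed from day 5 to day 12. It passed without the outlying day 9 array, at -0.58 (limma, adjusted p = 0.0334), as did 39% of all probes in that fit. It also passed without day 5 control replicate a, at -0.86 (limma, adjusted p = 0.00339), and without day 5 CHD5 shRNA replicate a, at -0.57 (limma, adjusted p = 0.0394). With CHD5 shRNA the corresponding differences were -0.51 to day 9 (limma, adjusted p = 0.157) and -0.40 to day 12 (limma, adjusted p = 0.242). Both passed without day 5 CHD5 shRNA replicate a, at -0.76 (limma, adjusted p = 0.041) and -0.65 (limma, adjusted p = 0.0499), and shrank to -0.30 and -0.19 without day 5 CHD5 shRNA replicate b (limma, adjusted p = 0.563 and 0.714). No pair of neighbouring groups in the order of mean Grin2b levels was free of overlap.

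**Figure D3:**
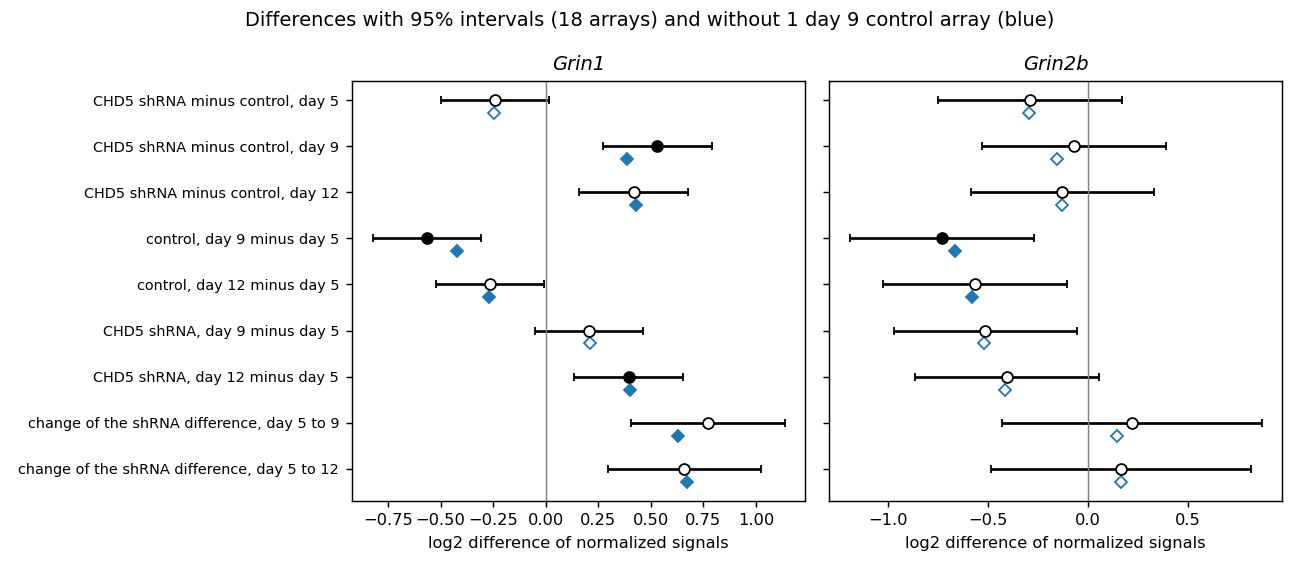
Differences of normalized log2 signal for Grin1 (left) and Grin2b (right): black circles with 95% intervals use all 18 arrays and blue diamonds leave out replicate b of the day 9 control; filled symbols have an adjusted p under 0.05. Grin1 passes with all arrays at day 9 (0.53), in control from day 5 to day 9 (-0.57) and with CHD5 shRNA from day 5 to day 12 (0.39), and Grin2b in control from day 5 to day 9 (-0.73).

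Counting the 4 member probes kept for testing, 0 passed between CHD5 shRNA and control on day 5, 1 on day 9 (Grin1) and 0 on day 12. Over all probes 0.171%, 5.89% and 5.47% passed on these days. From day 5 to day 12, 1 passed in control and 1, Grin1, with CHD5 shRNA, against 23.6% and 17% of all probes. With 4 probes, 1 call is close to these shares and says nothing particular about the subunits. The one in control was Grin2c, whose normalized level was -2.12 ± 0.13 on day 5 and -1.66 ± 0.16 on day 12 (limma, adjusted p = 0.0109). Its signals were detected on 0 of 3 day 5 arrays and 1 of 3 day 12 arrays, so this call compares values near background and no fold is given. The Grin2c probe came through the detection filter only by that day 12 array, control replicate c. This array belongs to the brighter group of the comparison, so the call is not evidence of a rise. Without it 0 subunit probes passed in control.

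The balance of Grin2a to Grin2b could be followed only as the movement of Grin2b over a Grin2a background. Grin2a signals were 101, 97.2 and 93.9 in control on day 5 and 77.6, 81.9 and 81.5 on day 12. With CHD5 shRNA they were 90.5, 92.7 and 73.0 on day 5 and 77.5, 75.1 and 69.1 on day 12. On day 9 they were 73.3, 57.0 and 71.2 in control and 66.5, 68.6 and 76.5 with CHD5 shRNA. The highest signals were those of day 5 control, where 1 of 3 arrays was detected, and 0 of 3 were in each of the other 5 groups.

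The within-array difference Grin2a minus Grin2b moved from day 5 to day 12 by 0.37 in control and 0.27 with CHD5 shRNA (two-sided exact permutation test, p = 0.4 for both). Arrays of the 2 days overlapped under both viruses. With 3 arrays against 3 this test cannot go below 0.1. Over both shRNAs together, permuting days within each, the shift was 0.32 (exact permutation test, p = 0.1, smallest possible 0.005). Since the Grin2a term is background, these p-values concern Grin2b and do not measure a balance of the 2 subunits. The shift came to 0.44 without day 5 control replicate a (exact permutation test, p = 0.04) and to 0.46 without day 5 CHD5 shRNA replicate a (exact permutation test, p = 0.025). Between CHD5 shRNA and control the balance differed by 0.13, -0.02 and 0.03 on days 5, 9 and 12 (exact permutation test, p = 0.7, 0.9 and 0.7). Over all days it differed by 0.05 (exact permutation test within days, p = 0.732). Leaving out single arrays moved the balance difference across 0 on each of the 3 days.

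Because Grin2a was at background, the pair of subunits that could be measured, Grin1 and Grin2b, was set side by side in the same way after the values were seen. The quantity is the difference of their normalized log2 signals within an array, and only its changes are read. On day 5 it was 2.01, 1.00 and 1.19 in control and 2.01, 0.92 and 1.43 with CHD5 shRNA. On day 9 it was 1.63, 1.42 and 1.65 in control and 2.14, 2.18 and 2.18 with CHD5 shRNA. On day 12 it was 1.65, 1.68 and 1.78 in control and 2.36, 2.25 and 2.13 with CHD5 shRNA. The day 5 groups overlapped, and on days 9 and 12 all 3 arrays with CHD5 shRNA lay above all 3 of control. Among single probes, 20.6% on day 9 and 38.2% on day 12 had no overlap in either direction. No such share was computed for differences between probes, so these are not a like background. The differences between shRNAs were 0.05, 0.60 and 0.55 (exact permutation test, p = 1, 0.1 and 0.1, the last 2 being the smallest possible). Over 22 alternatives the day 9 difference lay between 0.40 and 0.69. Over all days Grin1 minus Grin2b was higher with CHD5 shRNA by 0.40 (exact permutation test within days, p = 0.0268). In 22 alternatives this lay between 0.31 and 0.50 and fell under 0.05 in 15. The call ended without day 5 control replicate b or c and without day 5 CHD5 shRNA replicate a or c, with exact permutation p up to 0.091. It also ended with median centring, neqc and the second measurement of replicate a (exact permutation test, p = 0.054, 0.0715 and 0.07025). Grin1 alone differed by 0.53 and 0.42 on days 9 and 12, and Grin2b by -0.07 and -0.13. These permutation p-values, for a quantity chosen after those values were seen, therefore largely repeat the Grin1 result. They give no separate evidence of a shifted balance.

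Over the 18 arrays, normalized Grin1 followed most closely Rab3a (Pearson r = 0.92), a synaptic vesicle GTPase, among 6436 probes detected throughout. Arhgdia (0.91), Dym (0.90), Aplp1 (0.89), a relative of the amyloid precursor protein, and Gatad2a (0.89), a subunit of the NuRD complex, came next. Without the outlying array these correlations were 0.81 to 0.86. For Grin2b the closest were Parn (0.88), a poly(A) ribonuclease, Nrp1 (0.86), a semaphorin co-receptor, Wdr5 (0.85), LOC497765 (0.84) and Ralgapa1 (0.84). The 18 points share the day and virus structure of the design and the scaling of each array, so these values are descriptions. The correlation of Grin1 with Grin2b themselves was 0.16.

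The wider NMDA receptor pathway was followed in a list of 67 other genes, of which 61 had a probe and 50 passed the detection filter. With CHD5 shRNA 0 of the 50 changed on day 5. On day 9, 2 rose and 1 fell, and on day 12, 2 rose and 2 fell. The list medians were -0.02, 0.02 and 0.03 log2 units, against 0.01, -0.02 and 0.01 over all probes. Shares of 6% on day 9 and 8% on day 12 are close to those of all probes given above.

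Among activity-dependent targets, which calcium entry through the receptor induces, Bdnf, a neurotrophin, was the only one of 6 to change. It was higher with CHD5 shRNA by 0.78 (SE 0.13) on day 9 (limma, adjusted p = 0.00267) and by 0.64 on day 12 (limma, adjusted p = 0.00653). The day 12 call ended without CHD5 shRNA replicate c, at 0.52 (limma, adjusted p = 0.0515), and with no detection filter (limma, adjusted p = 0.0576). The day 9 call ended with the compared arrays alone (limma, adjusted p = 0.21). Fos, an immediate early transcription factor, differed by 0.87 on day 9 (SE 0.32), which did not pass (limma, adjusted p = 0.123). Bdnf, Fos and Npas4 fell from day 5 to day 12 in both cultures, by -2.34, -2.21 and -1.44 in control and by -1.83, -1.72 and -1.15 with CHD5 shRNA.

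Among 7 trafficking genes Ap2m1, a clathrin adaptor subunit that takes part in receptor internalization, was higher on day 9 by 0.62 (limma, adjusted p = 0.0113). It did not pass without CHD5 shRNA replicate a, at 0.59 (limma, adjusted p = 0.0575), or c, at 0.57 (limma, adjusted p = 0.0872). The call also ended with median centring and with the compared arrays alone (limma, adjusted p = 0.217 and 0.25). Among 14 kinases, phosphatases and anchors 1 changed, Camk2d, a calcium/calmodulin-dependent kinase subunit, at -0.35 on day 9 (limma, adjusted p = 0.0262). That call ended without any 1 of the CHD5 shRNA day 9 arrays and without control replicate a, at -0.37 to -0.30, with adjusted p (limma) up to 0.13. It was lost in 11 of 28 alternatives in all, other normalizations and filters among them. Camk2a, the forebrain kinase of the same family that docks on GRIN2B, differed by -0.06 on day 9 and -0.07 on day 12. Among 7 calmodulin, nitric oxide and small G protein genes Rasgrf1, a Ras exchange factor that binds GRIN2B, rose by 0.63 on day 12 (limma, adjusted p = 0.00645). This did not pass with neqc, at 0.97 (limma, adjusted p = 0.0821), or with no detection filter, at 0.64 (limma, adjusted p = 0.0894). Of 9 postsynaptic scaffold genes 0 changed on any of the 3 days.

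Among 6 genes of co-agonist supply 2 fell on day 12. These were Slc6a9, the glycine transporter GLYT1, at -0.46 (limma, adjusted p = 0.0339), and Phgdh, the first enzyme of serine synthesis, at -0.49 (limma, adjusted p = 0.0406). Leaving out any 1 of the 6 day 12 arrays ended either call, with adjusted p (limma) up to 0.164 for Slc6a9 and 0.175 for Phgdh. Both calls also ended with median centring and with no detection filter. Phgdh also failed to pass without 5 arrays of other days (control day 5 replicate b, CHD5 shRNA day 5 replicate c and all 3 of CHD5 shRNA day 9, left out singly), at -0.49 throughout and adjusted p (limma) of 0.0535 to 0.057. Phgdh is strongly expressed by astrocytes, whose markers fell on the same day as given above. On day 5 Phgdh differed by -0.43 (limma, adjusted p = 0.377), and 0 of 8 astrocyte markers passed. Whether the 2 falls are linked was not tested. Without the outlying day 9 control array, 0 of the 50 pathway genes rose and 2 fell on day 5, and 5 rose and 3 fell on each of days 9 and 12. These are 4%, 16% and 16% of the list, against 1.49%, 10.8% and 13.3% of all probes in that fit.

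With age in culture more probes passed than between shRNAs, in the list and over all probes alike. In control 7 of the 50 rose and 7 fell from day 5 to day 12 (28%, against 23.6% of all probes), and with CHD5 shRNA 10 rose and 5 fell (30%, against 17%). Among the rises in control were Phgdh (1.39) and Slc7a10 (1.32), a transporter of D-serine and glycine. Lin7a fell by -1.05 while Lin7b, its paralogue in the same scaffold complex, rose by 0.86. Ptpn5 (STEP), a phosphatase that acts on GRIN2B, fell by -0.70 in control and by -0.47 with CHD5 shRNA. Grin3b, the remaining subunit gene on the array, was detected on 3 of 18 arrays, with signals of 82.0 to 122.

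**Figure D4:**
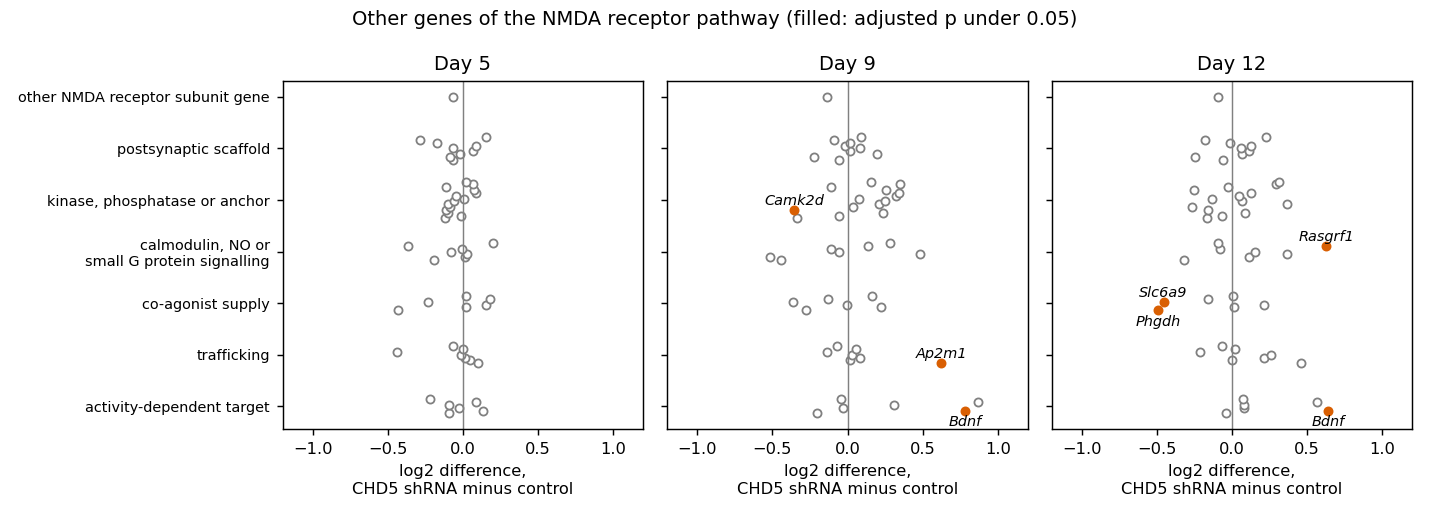
Log2 difference, CHD5 shRNA minus control, of 50 other genes of the NMDA receptor pathway on days 5, 9 and 12, in rows by role; filled points have an adjusted p under 0.05. There are 0 filled points on day 5, 3 on day 9 (Camk2d, Ap2m1 and Bdnf) and 4 on day 12 (Rasgrf1, Slc6a9, Phgdh and Bdnf), and all 9 scaffold genes are open.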

How the data were processed

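The authors extracted total RNA with the RNeasy kit, labeled it with biotin and hybridised it to Illumina RatRef-12 arrays. The deposited table, made by the authors in GenomeStudio 1.1.1, holds for each probe an average bead signal (intensity, neither normalized nor background-subtracted) and a detection p-value, for 18 samples and for a second measurement of the 6 replicate a samples. No alignment was involved, and precision is limited by the number of arrays.

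Probes were kept where 1 or more arrays had a detection p-value no higher than 0.02 (11079 of 22523). Their log2 intensities were Z-transformed on each array and multiplied by the mean SD. One linear model over the 6 groups was fitted with limma 3.58.1 in R 4.3.3 (lmFit, eBayes), and p-values were adjusted by Benjamini-Hochberg within each comparison over all kept probes. A probe was called where the adjusted p was under 0.05. The fit was tested on simulated data with known changes. Within-array differences of subunits were compared by two-sided exact permutation tests.

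Every subunit probe is named, as are pathway genes called between CHD5 shRNA and control on any day, for each gene the brightest probe. The 5 probes most correlated with each subunit detected on at least 9 arrays are also named. Age-related values of other pathway genes, Fos, Camk2a, Grin3b, Gfap, Aqp4 and Tubb3 were chosen after their values were seen. The members and lists were chosen with earlier results of these data known. Pathway alternatives, and Grin1 minus Grin2b, were added after seeing the data. Of the marker lists, interneuron (11 kept) had 0, 0 and 0 rising and 0, 1 and 2 falling on days 5, 9 and 12, oligodendrocyte lineage (9 kept) 0, 2 and 2 falling, fibroblast (4 kept) 0, 2 and 2 falling, and proliferation, microglia and endothelial lists 0 called. Without the outlying array 3 and 5 interneuron markers fell on days 9 and 12, 1 oligodendrocyte lineage marker rose on day 9, and 2 and 1 proliferation markers fell on days 5 and 12.

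Letters were checked as pairs through the correlation of deviations from group means. These were 0.27, 0.17 and 0.38 on day 5 for a, b and c, 0.43, 0.15 and -0.20 on day 9, and 0.05, 0.15 and 0.01 on day 12. These correlations were not tested, and the labels do not name the letters as pairs. The consensus correlation within day and letter was 0.13. Pairing is thus not established on any day, and on day 5 the blocked fit changed no subunit call.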

Additional observations from a re-analysis of the deposited data

Results flagged for a closer look

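Grin1 was singled out because the effect of CHD5 shRNA had opposite signs on different days, with no overlap of the arrays on either. On day 5 all 3 arrays with CHD5 shRNA lay below all 3 of control, and on days 9 and 12 all 3 lay above. Over all probes the groups did not overlap, in either direction, for 11%, 20.6% and 38.2% on days 5, 9 and 12. The change of the difference was 0.77 from day 5 to day 9 and 0.66 from day 5 to day 12. Tested as such across all probes these gave unadjusted p of 0.000324 and 0.00135 in limma, and adjusted p of 0.224 and 0.165, so neither passed with all 18 arrays. The groups have 3 arrays each, so no array was tested as an outlier within its group.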

How the results depend on the processing

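All differences of Grin1 between CHD5 shRNA and control, and between day 5 and a later day, kept their sign under 28 alternatives, but calls changed with the setting. The number of subunit probes called on day 9 went from 1 to 0 with median centring and with the compared arrays alone (where 0 of all probes passed). On day 12 it went from 0 to 1 with quantile normalization, neqc, a filter asking for detection on 3 of 3 arrays in some group, the replicate block by letter (Grin1 adjusted p = 0.035), the replicate block within a day, array weights and the compared arrays alone. From day 5 to day 12 it went in control from 1 to 0 with median centring and with a filter asking for all 3 arrays of a group, and to 2 with neqc and with the compared arrays alone. Over all probes these fits called 1474, 2689, 3208 and 3204 in that order, against 2616 in the main fit. With CHD5 shRNA the number of subunit probes went from 1 to 2 with quantile normalization, 0 with median centring and with no detection filter, and 3 with array weights. All-probe calls in these fits were 2613, 1005, 1306 and 4995 in that order, against 1885 in the main fit. For the change of the difference from day 5 to day 12 the subunit number went from 0 to 1 with quantile normalization, neqc, array weights and the compared arrays alone. Here 105, 52, 194 and 181 of all probes were called in that order, against 17 in the main fit. Leaving out 1 array gave 0 to 1 on days 9 and 12 and for that change, 0 to 3 in control and 0 to 2 with CHD5 shRNA. The 3 in control and the 2 with CHD5 shRNA came without the outlying day 9 control array. In that fit 39% and 32.2% of all probes passed for these comparisons. The 1 for the change came from the same fit, where 2.41% passed. Pathway genes called went on day 9 from 3 to 6 with quantile normalization and neqc, 7 with array weights and 0 with the compared arrays alone. On day 12 they went from 4 to 7 with quantile normalization, 2 with median centring, 0 with no detection filter, 19 with array weights and 13 with the compared arrays alone. Leaving out 1 array gave 0 to 2 pathway genes on day 5 and 1 to 8 on days 9 and 12. The highest of these came without the outlying day 9 control array, with the shares of all probes given above. The number called over all probes moved as well. On day 9 it was 653 in the main fit, 1044 with quantile normalization, 545 with array weights and 0 with the compared arrays alone. On day 12 it was 606, 977, 3575 and 2590 in the same order. With median centring it was 65 on day 9 and 162 on day 12, and with neqc 869 and 823. On day 12 it was 705 with the filter on 3 of 3 arrays and 340 with no detection filter. The block by letter gave 683 on that day and the block within a day 764. The cause of these shifts was not tested.

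No called difference changed sign, and those that did were the following. Grin2b on day 9 was 0.0145 with no detection filter and -0.154 to 0.0337 leaving out 1 array. The change of its difference ranged from -0.0312 to 0.506 to day 9 and from -0.0871 to 0.455 to day 12 leaving out 1 array. Grin2a minus Grin2b between shRNAs on day 9 was 0.00159 with quantile normalization, 0.0323 with neqc and 0.0400 with the second measurement of replicate a. With that measurement it was -0.0211 on day 5, -0.164 on day 12 and -0.0484 over all days. Leaving out 1 array it ranged from -0.155 to 0.367 on day 5, -0.218 to 0.157 on day 9, -0.0218 to 0.0753 on day 12 and -0.0483 to 0.125 over all days. Its shift from day 5 to day 12 over both shRNAs ranged from 0.21 to 0.46. Without day 5 control replicate b the Grin2a probe no longer passed the filter and no balance was computed. Grin1 minus Grin2b on day 5 was -0.0300 with the second measurement and -0.226 to 0.353 leaving out 1 array. No scaling moved the median of all probes by more than 0.06. Signals near background limit Grin2a, Grin2c and Grin2d to bounds.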
